A study of Danio rerio with 6 samples.

Results

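The primitive myeloid genes are a set of 10 genes that mark or build the first macrophages and neutrophils of the zebrafish embryo. They were chosen by name rather than by their values, but with earlier results of these data known. Of the 10, 9 were found among the 13466 genes of the count table and all 9 were tested, while *marco*, a scavenger receptor gene of macrophages, was not analysed here. RNA-seq compared homozygous *hoxb1b* mutants (the um197 allele in the study's methods) with wildtype control embryos at 18hpf, with 3 libraries of each genotype and no other treatment in either. *hoxb1b* encodes a Hox transcription factor of the early hindbrain, and the question was which genes depend on it in the embryo. RNA came from pools of whole embryos whose chorion and yolk had been removed in both genotypes. No source used here says if each library had a pool of its own. The p-values thus measure only how far these 6 libraries spread, and that spread may be technical.

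Primitive myeloid cells arise in the anterior lateral mesoderm of the zebrafish embryo, before any blood stem cell forms. The transcription factor Pu.1, the product of *spi1b*, directs progenitors towards the myeloid fate, and Irf8 then favours macrophages over neutrophils. Differentiating cells acquire receptors such as Csf1ra, a leukocyte form of the actin cytoskeleton, and the enzymes used against microbes. Young macrophages spread over the yolk, so embryos without yolk need not hold all of them.

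Total counts lay between 19139322 and 29146812 per library, and expression is given as CPM, the counts per 1000000 of the normalized library size. *hoxb1b* mRNA itself stood at 84.4 ± 0.787 CPM in mutants and 69.1 ± 2.37 CPM in wildtype (SD, n = 3 each). The transcript was thus still present in mutants, and its level gives no check of the labels. Of the markers listed, the count table held 9 of 10 for muscle, 12 of 13 for red blood cells and 7 of 9 for endothelium. It held 4 of 7 for hatching gland, 2 of 3 for thrombocytes and 0 of 1 for mast cells. Beyond counting, libraries of the same genotype differed little, with a common coefficient of variation of 1.85% from edgeR. Of the 12471 tested genes, 66.2% had an adjusted p under 0.05 from edgeR's quasi-likelihood test. With a change above 2-fold as a second criterion, 8.36% were called. By the same criteria, 1.70% were called higher and 6.66% lower in mutants.

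Among the 9 genes, those of differentiated myeloid cells were lower in *hoxb1b* mutants, while *spi1b*, the gene of the regulator Pu.1, was higher. Of the other neutrophil and macrophage genes given below, the shares lower and higher at an adjusted p under 0.05 lay near the background. With the 2-fold criterion, 2 of 8 neutrophil and 2 of 7 macrophage genes were lower (background 6.66%) and 0 were higher (background 1.70%). Of these lower genes, *csf3r*, *srgn* and *mpeg1.1* entered the test through their wildtype level, as described below. Of the 9 genes, 7 had an adjusted p under 0.05 and a lower level in mutants (background 33.6% of all tested genes). These were *lyz*, *csf1ra*, *cxcr3.2*, *coro1a*, *mpx*, *fcer1gl* and *lcp1*. *spi1b* was the 1 gene that passed with a higher level (background 32.6%), and *irf8* did not pass. The genotypes did not overlap in CPM for 8 of the 9 genes (background 68.2%). The mutant libraries were the lower ones for 7 genes (background 34.4%) and the higher ones for 1, *spi1b* (background 33.7%). All of the lower genes except *lcp1* also fell by more than 2-fold, which makes 6 of 9 (background 6.66%). The median log2 fold change over the 9 genes was -1.32, against -0.0034 over all tested genes. In bulk embryos, fewer myeloid cells and less of these transcripts per cell cannot be told apart.

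**Figure D1:**
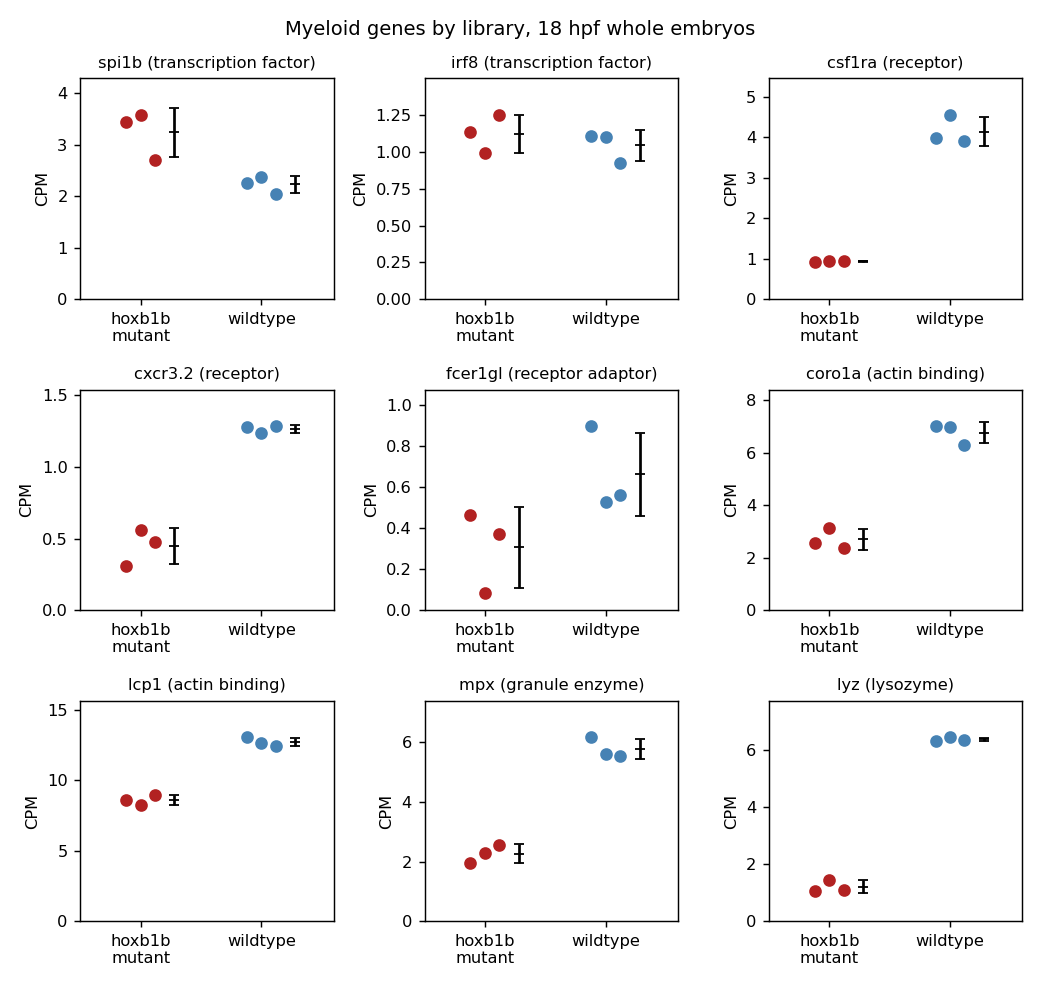
CPM of each of the 9 myeloid genes in each library (points), with the mean and SD over 3 libraries (black bar) for *hoxb1b* mutants (left, red) and wildtype (right, blue). The mutant points lie below every wildtype point for 7 genes, above them for *spi1b* (2.70 to 3.58 against 2.05 to 2.38 CPM), and among them for *irf8*.

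The filter for low expression asked for about 0.436 CPM in 3 or more libraries. All 6 libraries met it for 7 of the 9 genes, of which 5 were lower, 1 was higher and 1 did not pass the test. The shares over all tested genes (33.6% lower, 32.6% higher) also cover genes that did not meet the filter in all 6 libraries. They are thus not a like background for these 7. *cxcr3.2* met the filter in 2 and *fcer1gl* in 1 of the mutant libraries. These 2 genes thus entered the test through their wildtype level, which favours a lower level in mutants. Tested with no filter, the same 7 genes were lower and *spi1b* was higher. Since the same 9 genes enter either way, this does not address how *cxcr3.2* and *fcer1gl* entered. With at least 10 counts in every library, 7 of the 9 genes were tested and 4 were called, without *cxcr3.2* and *fcer1gl*. Over all genes, 759 of the 11835 tested in this way were called, in either direction.

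Among the transcription factors, *spi1b* was present at 3.45, 3.58 and 2.70 CPM in the mutant libraries, against 2.26, 2.38 and 2.05 CPM in the wildtype libraries. Every mutant library was above every wildtype library, with replicate 3 the lowest of its genotype in both. The log2 fold change was 0.51 (SE 0.15, 95% interval 0.19 to 0.83, adjusted p = 0.00487 from edgeR), a 1.43-fold difference. It rests on 67 to 83 counts in mutants and 40 to 54 in wildtype. Under an assumed coefficient of variation of 0.2 between embryo pools, the adjusted p from edgeR was 0.255 for *spi1b*, 0.134 for *lcp1* and 0.0678 for *fcer1gl*.

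*irf8*, the macrophage regulator, had 1.13, 0.991 and 1.25 CPM in mutants and 1.11, 1.102 and 0.923 CPM in wildtype. The genotypes overlapped, and the log2 fold change was 0.11 (SE 0.23, adjusted p = 0.692 from edgeR). Its 95% interval, from 18 to 37 counts per library, ran from -0.36 to 0.58 and so holds both a lower and a higher level in mutants.

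Among the receptors, *csf1ra* showed the largest fall. This receptor tyrosine kinase binds the growth factor Csf1, on which macrophages depend. Mutant libraries held 0.927, 0.948 and 0.945 CPM, against 3.97, 4.54 and 3.90 CPM in wildtype libraries. The groups were far apart, with a log2 fold change of -2.13 (SE 0.17, 95% interval -2.48 to -1.79, adjusted p = 5.04e-12 from edgeR), or 4.38-fold lower. The SD of 0.0114 CPM in mutants is smaller than counting alone gives on average for their 18 to 28 counts. Counting alone gives a coefficient of variation of 21.0% there, against the observed 1.21%, so the SD understates the error.

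*csf1ra* is also expressed in xanthophores, the yellow pigment cells, and genes of that lineage moved with it. These genes were picked after the values of *csf1ra* had been seen. *gch2*, which makes pteridine pigment precursors, had 47.6 ± 1.00 CPM in mutants and 184 ± 4.96 CPM in wildtype (SD, n = 3 each). Of 5 xanthophore genes listed, 4 were tested and 4 were lower (background 33.6%), and 2 of them by more than 2-fold (background 6.66%). The log2 fold changes were -1.96 for *gch2*, -1.89 for *slc2a15b*, -0.76 for *pax7a* and -0.56 for *pax7b*. The summed level of the 4 genes was 81.5 to 87.6 CPM in mutants and 260 to 265 CPM in wildtype. *gch2* alone held most of that sum. The part of xanthophores in the *csf1ra* result was not tested.

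*cxcr3.2* encodes a chemokine receptor with which zebrafish macrophages find sites of infection. It had 0.309, 0.560 and 0.473 CPM in mutants and 1.28, 1.23 and 1.28 CPM in wildtype, from 6 to 14 and 25 to 30 counts per library. The mutant libraries varied among themselves but none came near the wildtype range. Its log2 fold change was -1.46 (SE 0.27, adjusted p = 3.05e-05 from edgeR). *fcer1gl*, named for its likeness to the gamma chain that couples Fc receptors to kinases, was the gene with the fewest reads. It had 9, 2 and 11 counts in mutants and 21, 12 and 11 counts in wildtype. In CPM the mutant libraries, at 0.463, 0.0861 and 0.371, lay below the wildtype libraries, at 0.896, 0.529 and 0.564, with only a small gap. The log2 fold change of -1.12 (SE 0.40, adjusted p = 0.0148 from edgeR) depended on single libraries. It was -0.70 without mutant replicate 2 (adjusted p = 0.114 from edgeR) and -0.83 without wildtype replicate 1 (adjusted p = 0.126 from edgeR), and DESeq2 gave an adjusted p of 0.0692.

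Among the genes of the leukocyte cytoskeleton, *coro1a* encodes coronin 1A, an actin regulator of white blood cells. It stood at 2.58, 3.15 and 2.36 CPM in mutants, against 6.999, 6.97 and 6.31 CPM in wildtype. No mutant library reached the lowest wildtype one, and the log2 fold change was -1.34 (SE 0.12, adjusted p = 9.55e-11 from edgeR). *lcp1* encodes L-plastin, an actin-bundling protein often used as a label for all leukocytes. Its mutant libraries had 8.60, 8.23 and 8.97 CPM and its wildtype libraries 13.0, 12.7 and 12.4 CPM, again without overlap. The change was smaller, with a log2 fold change of -0.56 (SE 0.07, 95% interval -0.71 to -0.41, adjusted p = 1.75e-07 from edgeR). The intervals of these actin genes do not meet, as that of *coro1a* ran from -1.59 to -1.09. In mutant replicate 3 the *lcp1* count was fractional (265.79), so a few of its reads were shared with other sequences.

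*mpx* encodes myeloperoxidase, the main enzyme of neutrophil granules. It had 1.96, 2.28 and 2.57 CPM in mutants, against 6.15, 5.598 and 5.54 CPM in wildtype. The groups were well separated, with a log2 fold change of -1.32 (SE 0.13, adjusted p = 4.00e-10 from edgeR). *lyz* encodes a lysozyme that breaks bacterial walls and is made by early macrophages and neutrophils in zebrafish. Its 1.08, 1.47 and 1.11 CPM in mutant libraries compared with 6.32, 6.44 and 6.36 CPM in wildtype libraries. This was the largest change of the 9 genes, with a log2 fold change of -2.38 (SE 0.14, 95% interval -2.67 to -2.09, adjusted p = 1.01e-14 from edgeR), or 5.21-fold lower. Only 0.417% of all tested genes had a lower fold change than *lyz*, and 0.730% had a lower one than *csf1ra*.

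**Figure D2:**
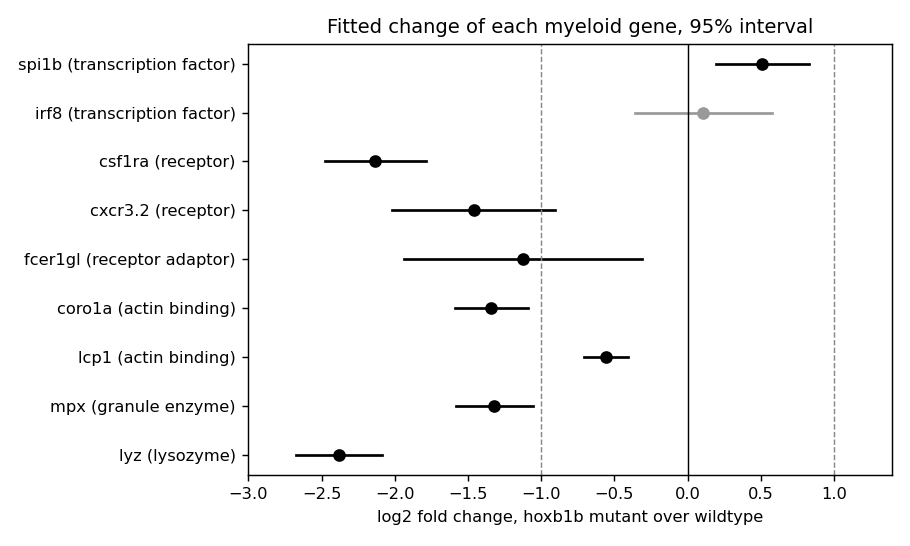
Fitted log2 fold change of *hoxb1b* mutants over wildtype for the 9 genes (points) with 95% intervals (lines), ordered by role, in grey where the adjusted p was not under 0.05. The dashed lines mark 2-fold, and the intervals of *lyz*, *csf1ra*, *coro1a* and *mpx* lie wholly beyond it on the lower side, while that of *spi1b* lies above 0.

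The same counts can be set against *spi1b* within each library, where no scaling between libraries enters. Because *spi1b* was itself higher in mutants, these ratios restate the separation already seen in CPM, with a larger fold, and are given as a description only. For each count of *spi1b*, mutant libraries held 0.313, 0.410 and 0.413 counts of *lyz*, against 2.79, 2.70 and 3.10 in wildtype libraries. This is a 7.62-fold lower ratio on the mean of the logs. The ratio of *csf1ra* to *spi1b* was 0.269, 0.265 and 0.350 in mutants and 1.75, 1.91 and 1.90 in wildtype, or 6.34-fold lower. *irf8* was the gene whose ratios overlapped, at 0.356 ± 0.0957 in mutants and 0.468 ± 0.0207 in wildtype (SD, n = 3 each).

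**Figure D3:**
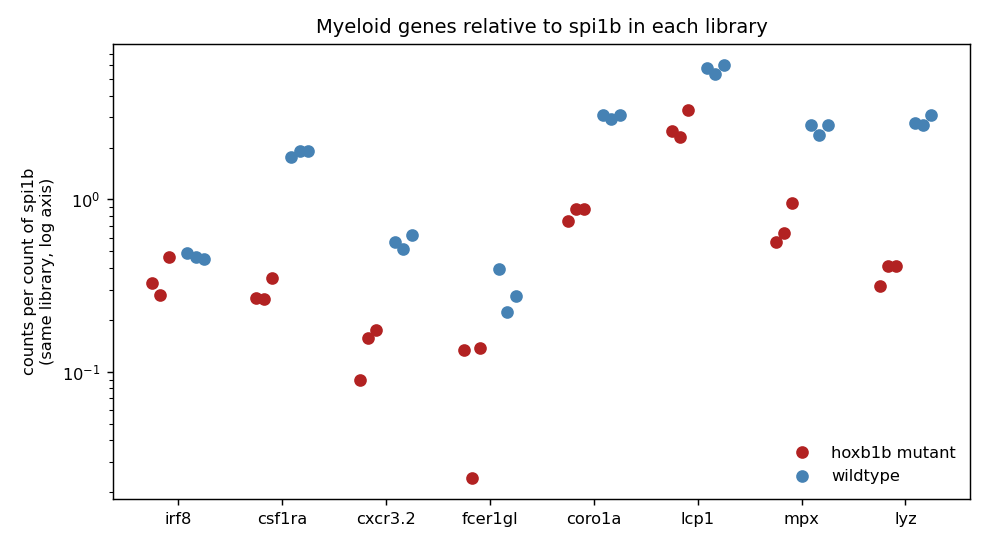
Counts of each myeloid gene per count of *spi1b* in the same library, on a log axis, in *hoxb1b* mutants (red, left) and wildtype (blue, right). The genotypes are separate for every gene except *irf8*, and the separation is widest for *lyz* (7.62-fold lower in mutants) and *csf1ra* (6.34-fold lower).

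Other genes of the myeloid pathway, taken from lists of known markers, changed in both directions. Of 80 such genes named, 59 were listed and 53 tested. Among the tested genes, 23 (43.4%) were lower and 14 (26.4%) higher at an adjusted p under 0.05, against 33.6% and 32.6% of all tested genes. With the 2-fold criterion 11 (20.8%) were lower and 1 (1.89%) higher, against 6.66% and 1.70% of all tested genes. Under an assumed coefficient of variation of 0.2, 12 were lower and 1 higher at an adjusted p under 0.05. In that fit 1590 of all 12471 tested genes had an adjusted p under 0.05, in either direction. Of the 12 called genes, *spi1a*, *csf3r*, *srgn*, *mpeg1.1*, *fermt3b* and *ncf4* entered the test through their wildtype libraries, since not all mutant libraries met the expression filter. So did *cebp1*, *syk* and *lect2l*, which were not called. Such entry favours a lower level in mutants and so raises the share called lower. Of the 44 related genes that met the filter in all 6 libraries, 6 were called. *mfap4*, *ptpn6*, *csf1a*, *csf1b* and *il1b* were lower and *gfi1aa* was higher. The share over all tested genes (8.36% in either direction) also covers genes that did not meet the filter in all 6 libraries. It is thus not a like background for these 44.

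All of the 9 further myeloid transcription factors passed the test, 6 lower and 3 higher (background 33.6% and 32.6%). With an assumed coefficient of variation of 0.2 between pools, 2 were lower (*spi1a* and *cebpb*) and 0 higher. The same fit gave 1590 of all 12471 tested genes in either direction. The paralog *spi1a* had 0.299 ± 0.107 CPM in mutants and 0.774 ± 0.154 CPM in wildtype (SD, n = 3 each), and its log2 fold change was -1.34 (SE 0.34, adjusted p = 0.00124 from edgeR). It thus moved the opposite way to *spi1b*, on 4.81 to 9.81 counts per mutant library and 13.64 to 21.04 per wildtype library. These counts of *spi1a* were fractional in every library, so some of its few reads were shared with other sequences. The C/EBP factors also divided. *cebpa*, which starts granulocyte differentiation in mammals, rose by 0.41 on the log2 scale, whereas *cebpb* (-0.76), *cebpd* (-0.48) and *cebp1* (-0.92), a factor of zebrafish granulocytes, fell. *runx1* rose by 0.56 and *myb* by 0.35 on the log2 scale, and *runx3* (-0.39) and *irf1b* (-0.47) fell. Most of these factors are also expressed outside blood, and whole embryos do not show in which cells they changed. *runx1*, *runx3* and *cebp1* no longer passed when single libraries were left out. For *runx1* the adjusted p was 0.0876 without mutant replicate 2 and 0.119 without wildtype replicate 1. It was 0.0566 for *runx3* without wildtype replicate 2, and 0.0524 for *cebp1* without wildtype replicate 3 (all from edgeR).

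Among 9 tested regulators of the common blood and endothelial progenitor, 6 were higher (background 32.6%) and 3 did not pass the test. With an assumed coefficient of variation of 0.2, 1 of the 9 was higher, against 1590 of all 12471 tested genes in either direction. *gfi1aa*, a transcriptional repressor needed for primitive blood, had 13.0 ± 0.483 CPM in mutants and 4.42 ± 0.451 CPM in wildtype (SD, n = 3 each). The log2 fold change of *gfi1aa* was 1.56 (SE 0.09, adjusted p = 4.34e-15 from edgeR). *lmo2* rose by 0.58, *etv2* by 0.46, *gata2a* by 0.32, *ikzf1* by 0.31 and *tal1* by 0.20 on the log2 scale. *fli1a* (0.05) and *hhex* (0.17) did not pass. *drl* did not pass either, but varied between the mutant libraries, at 21.1, 16.5 and 34.4 CPM. Without mutant replicate 3 it was lower, at -0.39 (adjusted p = 0.000618 from edgeR). *ikzf1* no longer passed when any 1 of 4 libraries was left out, namely mutant replicates 1 and 2 and wildtype replicates 1 and 3. Its adjusted p then lay between 0.0525 and 0.168 from edgeR.

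Of 8 other neutrophil genes, 3 were lower and 2 were higher, near the background shares of 33.6% and 32.6%. With the 2-fold criterion 2 were lower and 0 higher (background 6.66% and 1.70%). *srgn*, the core protein of granule proteoglycans, had 0.566, 0.388 and 0.507 CPM in mutants and 2.90, 1.72 and 1.74 CPM in wildtype. The groups did not overlap, with a log2 fold change of -2.13 (SE 0.27, adjusted p = 5.95e-08 from edgeR). *csf3r*, the receptor for the granulocyte growth factor, changed by -1.01 (adjusted p = 0.00588 from edgeR), on 7 to 15 counts in mutants and 14 to 26 in wildtype. Without wildtype replicate 2 it was at -0.75 (adjusted p = 0.0714 from edgeR). *nccrp1* fell by 0.47 on the log2 scale, *mmp9* rose by 0.52 and *cxcr4b* rose by 0.34. *npsn* (-0.49), *lect2l* (-0.25) and *mmp13a* (0.30) did not pass. Without mutant replicate 1, *npsn* was at -0.82 (adjusted p = 0.00529 from edgeR), and without wildtype replicate 1 at -0.64 (adjusted p = 0.0340 from edgeR). With at least 10 counts in every library *npsn* was at -0.51 (adjusted p = 0.0433 from edgeR). In 13 of 16 alternatives it did not pass. *mmp13a* was at 0.38 if mutant replicate 2 was left out (adjusted p = 0.0315 from edgeR). Several of these, *mmp9* and *cxcr4b* among them, are known from many non-myeloid tissues.

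Of 7 tested macrophage genes, 3 were lower and 2 higher, also near the shares of all tested genes (33.6% and 32.6%). With the 2-fold criterion 2 were lower and 0 higher (background 6.66% and 1.70%). *mfap4*, used in zebrafish to label macrophages, had 1.73, 2.02 and 1.64 CPM in mutants and 5.42, 4.49 and 5.77 CPM in wildtype. Its log2 fold change was -1.53 (SE 0.14, adjusted p = 2.22e-10 from edgeR). The counts of *mfap4* were fractional in every library (33.5 to 48.58 in mutants, 101.8 to 126.93 in wildtype), so some reads were shared with other sequences. *mpeg1.1*, which encodes a pore-forming protein of macrophages, had 0.412, 0.431 and 0.236 CPM in mutants and 1.11, 0.749 and 1.33 CPM in wildtype. Its log2 fold change of -1.59 (SE 0.32, adjusted p = 9.83e-05 from edgeR) was close to that of *mfap4*. The other 2 genes, *slc7a7* (-0.06, adjusted p = 0.663 from edgeR) and *ctss2.2* (0.29, adjusted p = 0.219 from edgeR), did not pass. For *slc7a7* the level was 4.79 ± 0.507 CPM in mutants and 5.04 ± 0.594 CPM in wildtype (SD, n = 3 each). The lysosomal genes *lgmn* (0.22), *hexb* (0.14) and *ctss2.1* (-0.09) changed by far less than *mfap4*, although each passed the test. *ctss2.1* no longer passed when any 1 of 4 libraries was left out, with adjusted p between 0.0526 and 0.132 from edgeR. Its adjusted p was 0.0759 with DESeq2, and 0.241 from edgeR with total count scaling. The lysosomal genes are made in most cells, at 121 ± 0.501 CPM in mutants and 104 ± 1.05 CPM in wildtype for *lgmn* (SD, n = 3 each).

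Shared leukocyte genes for signalling and the cytoskeleton gave 5 lower of 7 tested (background 33.6%), and the other 2 did not pass. *ptpn6*, a phosphatase that restrains leukocyte receptors, had 0.978, 0.689 and 0.878 CPM in mutants and 2.48, 2.42 and 2.46 CPM in wildtype. Its log2 fold change was -1.53 (SE 0.20, adjusted p = 1.09e-07 from edgeR). *arpc1b*, a subunit of the Arp2/3 complex that branches actin, fell by 0.89, and *rac2*, the GTPase of blood cells, fell by 0.39 on the log2 scale. *fermt3b*, an integrin activator, changed by -1.34 although wildtype replicate 1, at 0.469 CPM, lay within the mutant range of 0.259 to 0.507 CPM. *syk* (-0.86) no longer passed without mutant replicate 1 or wildtype replicates 1 or 3, with adjusted p between 0.0710 and 0.123 from edgeR. *pik3cg* (-0.29) and *wasb* (0.30) did not pass.

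The NADPH oxidase, with which phagocytes make superoxide, gave changes in both directions. Its cytosolic subunit genes *ncf1* (-0.82) and *ncf4* (-1.12) fell, and *cybb*, the catalytic subunit gene, was at 0.30 (adjusted p = 0.0204 from edgeR). For *cybb* the adjusted p was 0.0684 without mutant replicate 2 and 0.162 without wildtype replicate 2, both from edgeR.

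Both genes of the growth factor Csf1 were lower, as was the gene of its receptor. *csf1a*, a ligand of Csf1ra, had 1.29, 2.11 and 1.76 CPM in mutants and 6.02, 5.16 and 5.33 CPM in wildtype. Its paralog *csf1b* had 1.184, 1.12 and 0.844 CPM in mutants and 2.82, 3.13 and 2.82 CPM in wildtype. The genotypes did not overlap for either, with log2 fold changes of -1.66 (SE 0.15, adjusted p = 5.96e-11 from edgeR) and -1.51 (SE 0.18, adjusted p = 3.64e-08 from edgeR). The cytokine gene *il1b* fell by 1.096 and the chemokine gene *cxcl12b* by 0.28 on the log2 scale, while *cxcl12a* was at 0.03 (adjusted p = 0.504 from edgeR). The growth factor genes *csf3a* (-0.20), *kitlga* (-0.04) and *kitlgb* (-0.19) did not pass. In all, 4 of 8 tested genes of growth factors and chemokines were lower (background 33.6%) and 4 did not pass.

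**Figure D4:**
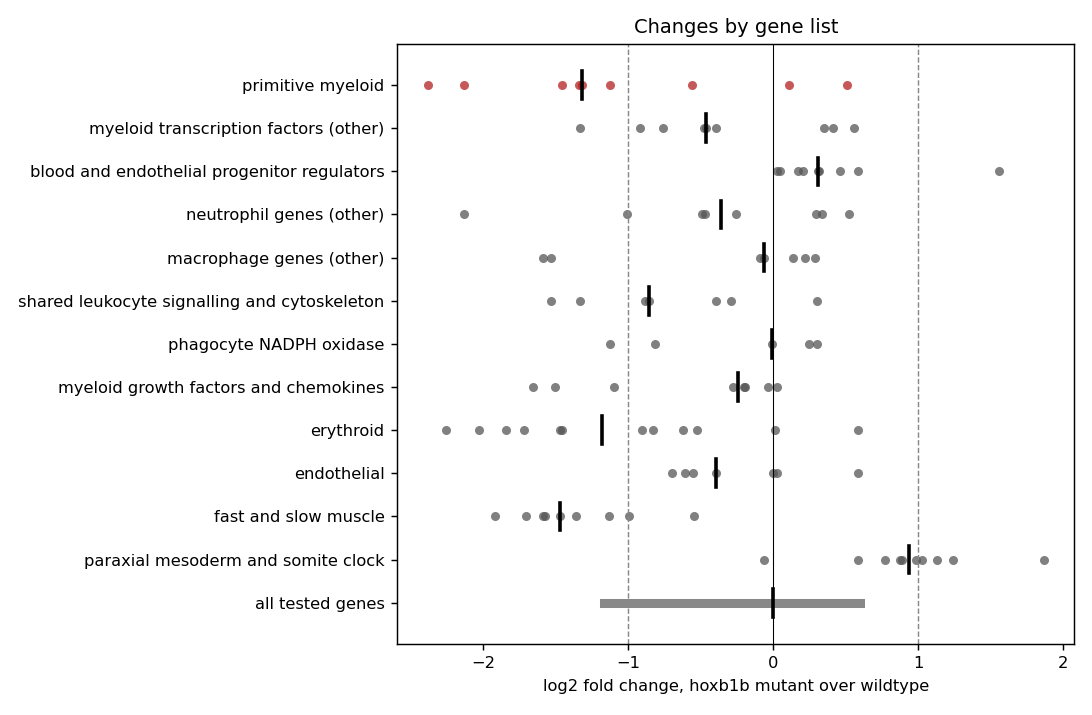
Log2 fold change of *hoxb1b* mutants over wildtype for each tested gene (points) of the 9 primitive myeloid genes (red) and of related and marker lists (grey), with the median of each list (black bar). The grey bar at the bottom spans percentiles 5 to 95 of all tested genes (-1.17 to 0.60), and the dashed lines mark 2-fold.

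Other lineages of the embryo moved as well, and their values stand beside the myeloid ones. Of 12 tested erythroid genes, 10 were lower and 1 was higher (background 33.6% and 32.6%). The largest falls among them were those of *slc4a1a* and *hbbe1.1*. The globin gene *hbbe1.1* had 124 ± 2.95 CPM in mutants and 503.8 ± 6.89 CPM in wildtype, and *slc4a1a*, the anion exchanger of red cells, had 12.9 ± 1.16 CPM in mutants and 62.2 ± 2.57 CPM in wildtype (SD, n = 3 each). The erythroid regulators *gata1a*, at 0.01 (adjusted p = 0.909 from edgeR), and *klf17*, which rose by 0.58, were not among the lower genes. Of the muscle genes all 9 tested were lower (background 33.6%), with a summed level of 5654 to 5742 CPM in mutants and 13840 to 14020 CPM in wildtype. Genes of the presomitic mesoderm, which supplies new somites, were higher in 9 of 10 cases (background 32.6%), with a median log2 fold change of 0.94. *tbx6*, for example, had 202 ± 5.18 CPM in mutants and 85.5 ± 2.61 CPM in wildtype (SD, n = 3 each). Both genotypes are labelled with the same stage. A difference in developmental progress between the pools and the *hoxb1b* genotype itself cannot be told apart as the source of the myeloid values. The summed level of the 9 myeloid genes was 20.5 to 21.3 CPM in mutants and 39.3 to 42.0 CPM in wildtype. The part of the other lineages in that difference was not tested.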

How the data were processed

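Libraries of polyadenylated RNA were made with a stranded kit from whole embryos. The table deposited by the authors holds unnormalized estimated counts per gene, of the kind RSEM gives. The submitters' processing notes name RSEM 1.2.28, FastQC, DESeq2 and the builds GRCz10 and danRer7, without roles. The authors also deposited their own comparison as an adjusted p-value, a log2 fold change and a linear ratio (fold change), and these 3 columns were not used. Groups came from the sample titles, and columns were matched by the names in the sample descriptions.

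Counts were rounded and analysed with edgeR 4.0.16 in R 4.3.3 (filterByExpr, TMM, glmQLFit and glmQLFTest, genotype as the only factor, all 6 libraries), with Benjamini-Hochberg adjustment over 12471 genes. A gene passed at an adjusted p under 0.05 and was called if it also changed by more than 2-fold, the limit given in the study's methods. Each SE was obtained by dividing the absolute log2 fold change by the root of the F statistic. CPM were computed from unrounded counts. Depth limits the precision of low genes, so counts are given for them. Scripts were tested on simulated data.

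The myeloid genes and the lists were chosen with earlier results of these data known. Named genes are all 10 myeloid genes, *hoxb1b*, and from the related myeloid lists every called gene and up to 5 tested genes of the highest mean CPM. From the lists of other lineages only examples are named, and other called genes of those lists are left out. Other list members were named after their values were seen. Symbols of the 10 genes match RefSeq symbols, and no coordinates are given because that assembly differs from the builds above. Alternatives were DESeq2 1.42.0, scaling by its size factors, by total counts or by the upper quartile, unrounded counts, testing without a filter or with 10 or more counts in each library, a replicate block, glmTreat and leaving out each library. Fits that assume a coefficient of variation of 0.2 or 0.4 between pools were added after seeing the data. Levels were not compared between genes, as no transcript lengths were used here, and promoter motifs were not examined.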

Additional observations from a re-analysis of the deposited data

How the results depend on the processing

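Of the 6 myeloid genes called in the fit with edgeR, 6 were also called under the other scalings, without a filter, with unrounded counts and with the replicate block, and 5 with DESeq2, which lost *fcer1gl*. DESeq2 also lost the related genes *runx1*, *cebp1*, *ikzf1*, *syk*, *cybb* and *ctss2.1* at an adjusted p under 0.05. Total count scaling lost *ctss2.1* (adjusted p = 0.241), while *mmp13a* (0.0317) and *fli1a* (0.0471) passed with it, all from edgeR. With at least 10 counts in every library, 7 of the 9 genes were tested and 4 called, against 759 called of all 11835 genes tested. Leaving out 1 library gave 5 to 6, and *fcer1gl* was the gene lost. Against a 2-fold change (glmTreat) 3 were called (*coro1a*, *csf1ra* and *lyz*). If pools were assumed to vary with a coefficient of variation of 0.4, 2 were called (*csf1ra* and *lyz*) and 2 had an adjusted p under 0.05. With 0.2, 5 had an adjusted p under 0.05 (1590 of all 12471 tested genes), and *spi1b*, *lcp1* and *fcer1gl* were lost. Over all genes 502 were called with glmTreat and 263 with a coefficient of variation of 0.4, against 1043. Of the related genes, 12 were called, against 6 with at least 10 counts in every library, 6 with glmTreat and 2 with a coefficient of variation of 0.4. The replicate block called 1048 genes in all and 12 related genes. Libraries with the same replicate number in their titles had correlations of -0.0784 to 0.0771 between their deviations. With 3 libraries of each genotype this cannot tell whether libraries were paired. The column names number the mutant libraries differently from the titles, and pairing by those numbers was not examined. The log2 fold change of *drl* changed sign with DESeq2 (-0.015), the replicate block (-0.023) and coefficients of variation of 0.2 (-0.017) and 0.4 (-0.019), and ranged from -0.39 to 0.24 with 1 library left out. That of *gata1a* ranged from -0.047 to 0.098 with 1 library left out. The cause of these changes was not tested. Length scaling and promoter motifs were not run, as no sequences or lengths were used here.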

Other observations

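The endothelium, which shares progenitors with primitive blood, gave mixed values. Of 7 tested endothelial genes, 4 were lower and 1 was higher at an adjusted p under 0.05 (background 33.6% and 32.6%). *cdh5*, the cadherin of endothelial junctions, had 17.1 ± 0.572 CPM in mutants and 26.0 ± 0.657 CPM in wildtype (SD, n = 3 each). Its difference on the log2 scale was -0.61 (SE 0.05, adjusted p = 6.92e-11 from edgeR). *kdrl* fell by 0.39 on the log2 scale, whereas its paralog *kdr*, also a receptor for the growth factor Vegf, was higher, at 21.3 ± 0.935 CPM in mutants and 14.2 ± 1.51 CPM in wildtype (SD, n = 3 each).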
